A study of Mus musculus with 15 samples.

Results

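Biliary cells sorted from livers of DDC-treated mice were compared with hepatocytes sorted from livers of mice on the same treatment, a difference of lineage inside the injured liver. The members are the 6 ATAC-seq libraries whose labels name these cells and this treatment, 3 of DDC biliary cells and 3 of DDC hepatocytes, out of 15 libraries in the series. ATAC-seq uses a transposase that cuts open chromatin, so the reads in a region measure its accessibility and not the expression of a gene. DDC is diethoxycarbonyl-dihydrocollidine, a compound fed to mice that injures the bile ducts and disturbs heme synthesis. Both groups had the DDC treatment, and the labels give no genotype, strain, age, length of treatment or sorting marker for either. The untreated biliary cells and untreated hepatocytes, 3 libraries each, enter 1 comparison at the end, and reprogrammed hepatocytes from treated mice make up the rest of the series. Nothing in the labels ties the replicates to different animals, and the p-values below measure only the spread between these libraries, which may be technical.

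Hepatocytes make plasma proteins, urea, glucose and bile acids, under a network of transcription factors with Hnf4a, Cebpa and the Foxa proteins at its centre. Biliary cells, or cholangiocytes, line the bile ducts, carry keratins 7 and 19 and the adhesion protein Epcam, and depend on Sox9 and Notch signals. Both arise from the same fetal hepatoblasts. After DDC the duct epithelium proliferates in what is called the ductular reaction, where YAP activity, inflammation and matrix genes have been described.

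Sequencing depth was unequal between the groups. The biliary libraries held 5151190 to 10395918 reads in nuclear regions and the hepatocyte libraries 1191409 to 2342643. Mitochondrial DNA took 7.99 to 12.9% of the reads in regions in biliary and 29.1 to 42.4% in hepatocyte libraries, so all values are nuclear RPM, that is RPM computed over the reads in nuclear regions alone. A gene's value is the sum over the regions tied to it. Of the 93215 nuclear regions 2.19 to 3.93% had no read in a biliary library and 17.6 to 28.2% in a hepatocyte library. The smallest is hepatocyte library 3, where a count of 0 allows up to 3 reads, or 2.52 nuclear RPM. Changes in log2 are biliary minus hepatocyte ± SE from limma on log2(nuclear RPM + 1), and a gene was called at a Benjamini-Hochberg adjusted p under 0.05 over all genes tested. Adding 1 understates the change of low genes.

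Accessibility at the 4 marker genes went with the sorted identity. Krt19, the keratin of bile duct epithelium, had 119, 129 and 144 nuclear RPM in the biliary libraries and 5.55, 6.70 and 9.23 in the hepatocyte libraries. Epcam, an adhesion molecule of biliary epithelium, had 233, 192 and 200.4 nuclear RPM against 28.2, 26.8 and 27.7. The groups are far apart at both genes, with mean levels 18.3-fold and 7.56-fold higher in biliary cells. In log2 the rise was 4.03 ± 0.21 for Krt19 (adjusted p = 2.49e-06) and 2.87 ± 0.14 for Epcam (adjusted p = 2.00e-06).

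Alb, the albumin gene, had 47.4, 117 and 54.0 nuclear RPM in biliary cells and 608, 930 and 540 in hepatocytes. Hnf4a, the nuclear receptor that maintains hepatocyte identity, had 66.5, 95.7 and 76.1 against 406, 394 and 310. No biliary library reached a hepatocyte library at either gene. The mean level was 9.52-fold higher in hepatocytes for Alb and 4.66-fold higher for Hnf4a, with log2 changes of -3.31 ± 0.30 (adjusted p = 1.65e-05) and -2.21 ± 0.16 (adjusted p = 5.96e-06). Biliary library 2 had the highest value of the 3 biliary libraries at both.

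All 6 tested regions of Krt19 and all 8 of Epcam were higher in biliary cells, and 5 of 6 regions of Alb and 15 of 19 of Hnf4a were lower. Over all tested regions 26.1% were higher and 20.9% lower. The promoters of Epcam and Alb are shown because each lies in a region that was called. The Epcam region, chr17:87635303-87639691, rose by 2.50 ± 0.19 (adjusted p = 1.40e-05). The Alb region, chr5:90460318-90480882, spans the gene body and changed by -3.45 ± 0.29 (adjusted p = 1.86e-05). The sequences are RefSeq's, build GRCm38.p6, 250 bases before the start site in the direction of the gene. Capitals mark matches to 1 of the motifs searched below. The given table has no promoter for Krt19.
Epcam (chr17:87635729-87635978, plus strand): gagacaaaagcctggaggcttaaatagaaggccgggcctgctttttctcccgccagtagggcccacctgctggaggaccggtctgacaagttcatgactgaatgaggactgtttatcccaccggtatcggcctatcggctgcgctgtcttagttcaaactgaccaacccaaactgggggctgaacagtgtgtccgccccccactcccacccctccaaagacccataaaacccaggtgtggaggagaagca
Alb (chr5:90460620-90460869, plus strand): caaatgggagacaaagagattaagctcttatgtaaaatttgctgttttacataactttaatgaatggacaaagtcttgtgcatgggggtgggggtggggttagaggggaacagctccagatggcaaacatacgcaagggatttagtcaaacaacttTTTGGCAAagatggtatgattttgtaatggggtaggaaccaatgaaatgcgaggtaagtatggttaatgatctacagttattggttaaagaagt
In the Alb promoter the capitals are a C/EBP match. The Epcam window holds none of the searched letters, is richer in C and G (56.4% against 39.2%) and has 8 CG pairs against 2.

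**Figure D1:**
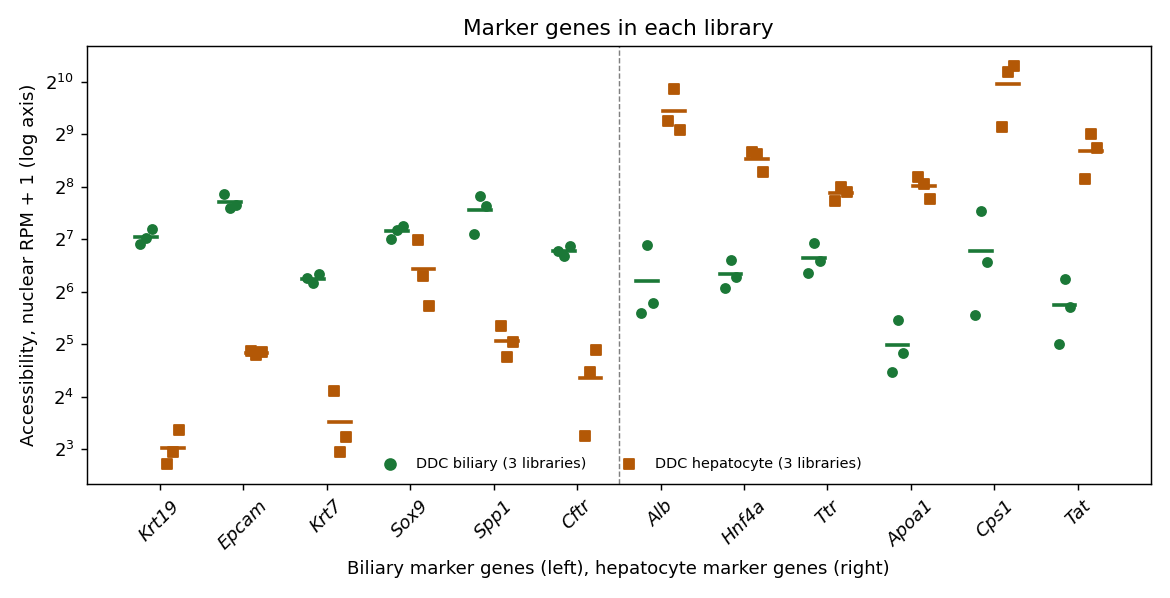
Accessibility of 6 biliary marker genes (left of the dashed line) and 6 hepatocyte marker genes (right) in each of the 6 libraries, in nuclear RPM + 1 on a log axis. Circles are DDC biliary libraries, squares DDC hepatocyte libraries and bars group means. Krt19 is at 119 to 144 nuclear RPM in biliary cells and 5.55 to 9.23 in hepatocytes, while at Sox9 the lowest biliary library (127) and the highest hepatocyte library (125.5) nearly meet.

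The wider marker set gave the same division for most genes, with some markers barely apart. Krt7, Spp1 (osteopontin, secreted by duct cells) and Cftr (the chloride channel of duct epithelium) rose by 2.82 ± 0.28, 2.47 ± 0.21 and 2.57 ± 0.33, with adjusted p of 2.71e-05, 1.26e-05 and 0.000140. Sox9, a factor of biliary cells and of hepatocytes that take on duct features, had 127, 144 and 151 nuclear RPM in biliary cells and 125.5, 78.1 and 52.0 in hepatocytes. Its change was 0.80 ± 0.25 (adjusted p = 0.025), and it was not called without biliary library 2, biliary library 3 or hepatocyte library 2 (adjusted p = 0.0854, 0.0879 and 0.0778). Hepatocyte library 1 was therefore almost level with the lowest biliary library at Sox9.

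Among hepatocyte markers Apoa1, an apolipoprotein of high-density lipoprotein, changed by -3.07 ± 0.23 (adjusted p = 6.38e-06). Cps1, the first enzyme of the urea cycle, changed by -3.32 ± 0.42 (adjusted p = 0.000123), with 26 of its 30 regions lower (20.9% of all regions). Tat, which degrades tyrosine, changed by -2.98 ± 0.29 and Ttr, the thyroid hormone carrier transthyretin, by -1.25 ± 0.16 (adjusted p = 2.27e-05 and 0.000110).

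Over all genes tested, 6469 of 16154 were called (40.0%), 3550 higher in biliary cells (22.0%) and 2919 lower (18.1%). At least 2-fold changes made up 2133 of the higher and 1536 of the lower calls, and at least 8-fold changes 116 and 69. The split leaned on the scaling: 54.9% of called genes were higher with mitochondrial reads left out, 83.3% on the scale as deposited and 50.2% with edgeR. The median change of all genes was 0.07 here and 0.50 as deposited, so directions of genes with small changes hold only for the nuclear scale. All 3 biliary libraries lay above all 3 hepatocyte libraries in 29.1% of genes and below them in 23.6%.

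Genes with the largest rises included epithelial keratin, junction and cytokine genes. Krt39, a hair-type keratin, led with 39.0, 37.1 and 46.8 nuclear RPM in biliary cells and 0.854, 0.479 and 0.839 in hepatocytes (4.61 ± 0.30, adjusted p = 4.19e-06). Aif1l, an actin-binding protein, had 97.7, 80.6 and 93.9 against 10.2, 4.31 and 0 (4.55 ± 0.66, adjusted p = 0.000288). Syt8, of the synaptotagmin family of vesicle proteins, had 49.4, 46.0 and 57.5 against 4.27, 1.92 and 0 (4.38 ± 0.50, adjusted p = 6.13e-05). The groups lie far apart at each of the 3, although a hepatocyte library with 0 or 1 reads fixes the size of the fold only loosely.

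Il17c, an epithelial cytokine of the interleukin-17 family, rose by 4.35 ± 0.51 and Il1a, the alarm cytokine interleukin-1 alpha, by 4.20 ± 0.40 (adjusted p = 7.57e-05 and 2.09e-05). Amotl1, a junction protein that binds YAP, had 193, 155 and 150 nuclear RPM against 11.95, 6.22 and 10.1 (4.04 ± 0.23, adjusted p = 2.92e-06). The 10 largest rises also held Lce1m, a cornified envelope protein (4.48 ± 0.48), Cyba, a subunit of the NADPH oxidase (4.36 ± 0.39), Pof1b, an actin-binding junction protein (4.10 ± 0.35), and Krt19. The Cyba value includes a region that also touches Mvd, and no region of Lce1m or Il1a touched the gene itself.

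Genes with the largest falls were mostly those of hepatocyte products and metabolism. Slc25a47, a mitochondrial carrier of liver, had 52.4, 118 and 77.7 nuclear RPM in biliary cells and 1143, 1191 and 1158 in hepatocytes (-3.88 ± 0.22, adjusted p = 2.92e-06), all in 1 region that also touches Wars. Hpx, the heme-binding plasma protein hemopexin, had 29.4, 50.1 and 55.4 against 441, 507 and 944 (-3.75 ± 0.28, adjusted p = 7.02e-06). Pck1, a key enzyme of glucose production, had 38.2, 97.3 and 49.0 against 582, 985 and 677 (-3.66 ± 0.29, adjusted p = 9.28e-06). Mean levels of Slc25a47, Hpx and Pck1 were 14.1-fold, 14.0-fold and 12.2-fold higher in hepatocytes.

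F10, coagulation factor X, had 7.41, 13.8 and 11.9 nuclear RPM against 148, 151 and 160.3 (-3.72 ± 0.22, adjusted p = 2.92e-06), and Apoa5, an apolipoprotein that controls plasma triglycerides, changed by -3.74 ± 0.28. No region of Apoa5 touched the gene itself. Morn5 (-3.96 ± 0.37), Timd2, a ferritin receptor (-3.66 ± 0.29), and Ccdc152 (-3.71 ± 0.28) were also among the largest falls. The single region of Ccdc152 also touches Selenop, the selenium carrier of plasma, so its value cannot be given to either gene.

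Promoters of the first 2 genes in each direction with a called region over the promoter and a sequence in the table are shown to set risers beside fallers. The Aif1l and Syt8 promoter regions rose by 3.88 ± 0.61 and 3.71 ± 0.50 (adjusted p = 0.000396 and 0.000156), and those of Slc25a47 and Hpx changed by -3.88 ± 0.20 and -3.75 ± 0.27 (adjusted p = 6.72e-06 and 1.14e-05).
Aif1l (chr2:31950053-31950302, plus strand): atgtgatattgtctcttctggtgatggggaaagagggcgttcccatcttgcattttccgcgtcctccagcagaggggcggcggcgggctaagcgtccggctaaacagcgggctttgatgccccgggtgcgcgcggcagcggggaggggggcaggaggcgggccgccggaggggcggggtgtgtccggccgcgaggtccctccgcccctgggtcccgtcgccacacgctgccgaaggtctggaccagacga
Syt8 (chr7:142434600-142434849, plus strand): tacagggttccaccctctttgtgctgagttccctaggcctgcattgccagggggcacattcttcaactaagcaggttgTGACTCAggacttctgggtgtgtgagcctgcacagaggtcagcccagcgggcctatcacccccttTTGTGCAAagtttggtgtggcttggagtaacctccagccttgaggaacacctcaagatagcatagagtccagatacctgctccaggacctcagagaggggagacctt
Slc25a47 (chr12:108850879-108851128, plus strand): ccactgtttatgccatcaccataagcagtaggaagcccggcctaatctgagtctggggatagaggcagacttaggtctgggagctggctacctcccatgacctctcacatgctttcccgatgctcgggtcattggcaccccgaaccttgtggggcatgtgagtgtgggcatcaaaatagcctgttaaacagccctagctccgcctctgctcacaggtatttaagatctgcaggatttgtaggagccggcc
Hpx (chr7:105600117-105600366, minus strand): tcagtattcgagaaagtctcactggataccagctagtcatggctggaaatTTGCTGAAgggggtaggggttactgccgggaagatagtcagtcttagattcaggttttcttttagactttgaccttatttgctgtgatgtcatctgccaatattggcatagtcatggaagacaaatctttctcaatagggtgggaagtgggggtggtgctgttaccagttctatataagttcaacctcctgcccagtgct
The capitals are an AP-1 match and then a C/EBP match in Syt8 and a C/EBP match in Hpx. Aif1l has 27 CG pairs in its window, against 1 in Syt8, 6 in Slc25a47 and 2 in Hpx.

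Of 28 biliary identity genes, 22 of the 27 tested rose and 1 fell, with a median change of 1.33 beside 0.07 over all genes. Among all genes 22.0% rose and 18.1% fell. Muc1 has no region tied to it. Krt19, Epcam and Krt7 were among those with the largest rises. The exception was Prom1, a membrane protein of progenitor cells, at -0.55 ± 0.18 (adjusted p = 0.029). The Prom1 call was lost on the deposited scale (-0.10, adjusted p = 0.598) and without biliary library 1, 2 or 3 (adjusted p = 0.114, 0.0735 and 0.0712).

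Transcription factors of biliary and other epithelia rose less uniformly: 11 of 19 tested were higher and 1 lower, median 0.80, with Ovol1 under the minimum level. The shares of all genes were 22.0% higher and 18.1% lower. In a list of neuronal genes, taken up below, 8 of 15 rose, median 0.70. Grhl2, which maintains epithelial junctions, had 123, 138 and 143 nuclear RPM in biliary cells and 12.8, 10.1 and 11.8 in hepatocytes (3.44 ± 0.17, adjusted p = 2.00e-06). Ehf, an ETS factor of epithelia, had 234, 229 and 213 against 45.7, 44.1 and 35.3 (2.42 ± 0.14, adjusted p = 2.92e-06). Foxj1, the master factor of motile cilia, rose by 2.42 ± 0.22 (adjusted p = 1.71e-05). Grhl2, Ehf and Foxj1 separate the groups without overlap, while Id3, an inhibitor of helix-loop-helix factors, changed by -0.49 ± 0.12 (adjusted p = 0.00868) and lost its call as deposited (-0.04, adjusted p = 0.840).

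Of 20 hepatocyte transcription factors 13 fell and 1 rose, median -0.64, where 18.1% of all genes fell and 22.0% rose. Creb3l3, a factor of lipid and acute phase genes, changed by -2.40 ± 0.17, and the xenobiotic receptors Nr1i3 (CAR) and Nr1i2 (PXR) by -2.36 ± 0.41 and -1.88 ± 0.23 (adjusted p = 6.19e-06, 0.000942 and 9.54e-05). With regions at gene ends only, Nr1i2 was not called (-0.73, adjusted p = 0.0599). The pioneer factors Foxa1 (-0.12 ± 0.11) and Foxa2 (-0.17 ± 0.12) and the fetal liver regulator Prox1 (-0.21 ± 0.19) did not pass (adjusted p = 0.432, 0.262 and 0.409). The count moved with single libraries and the scale: 8 fell without biliary library 1, biliary library 3 or hepatocyte library 2, and 5 on the deposited scale. Lhx2, the member that rose (0.49 ± 0.17, adjusted p = 0.039), was called without hepatocyte library 3 but lost its call when any other library was left out (0.36 to 0.57).

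Plasma protein genes fell almost throughout, 37 of 40 with none higher and a median of -2.55 (18.1% of all genes fell and 22.0% rose). Hpx and F10 led with Ahsg, the plasma inhibitor of calcification (-3.63 ± 0.30), and Igfbp1, a binding protein of growth factors (-3.45 ± 0.22). In amino acid, urea and glucose metabolism 25 of 27 fell and none rose, median -2.14, beside the same shares of all genes. Tdo2, which opens tryptophan breakdown, changed by -3.30 ± 0.40 (adjusted p = 9.69e-05) beside Pck1 and Cps1.

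Residual accessibility of these genes varied between biliary libraries. Summed over the plasma protein list, biliary libraries 1, 2 and 3 held 20.5, 28.0 and 23.1% of the hepatocyte mean. For the amino acid, urea and glucose list the shares were 17.8, 27.9 and 21.2%. Biliary library 2 was the highest in both. A bulk library cannot tell a minority of hepatocytes or free hepatocyte chromatin from partly open genes in every cell, and their part in these values was not tested. Without biliary library 2, 35 plasma protein genes and 25 genes of the metabolism list still fell.

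Lipid metabolism was mixed: 18 of 24 fell and 1 rose, median -0.91 (18.1% and 22.0% of all genes). Fabp1, the liver fatty acid binding protein, changed by -2.85 ± 0.38 and Mttp, which loads lipoproteins with lipid, by -2.78 ± 0.29 (adjusted p = 0.000174 and 3.98e-05). Scd1, a fatty acid desaturase, changed by -1.92 ± 0.17. Acadl, a dehydrogenase of fatty acid oxidation, was the riser (0.49 ± 0.12, adjusted p = 0.00764), a call lost with regions at gene ends only (0.14, adjusted p = 0.457).

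Of 20 bile acid genes tested, 16 fell and none rose, median -1.94, and Slc51a has no region. Over all genes 18.1% fell and 22.0% rose. Cyp7a1, the rate-limiting enzyme of synthesis, had 7.98, 28.9 and 10.2 nuclear RPM in biliary cells and 121, 160 and 101 in hepatocytes (-3.13 ± 0.38, adjusted p = 8.61e-05). Slc27a5, which activates bile acids for conjugation, and the canalicular exporters Abcg8 and Abcc2 changed by -3.41 ± 0.31, -3.09 ± 0.32 and -3.05 ± 0.40. The groups do not overlap at Cyp7a1, with biliary library 2 again the highest of its group. Abcc3 and Abcc4, exporters of the basolateral side that act in cholestasis, did not pass (0.15 ± 0.16 and 0.19 ± 0.11, adjusted p = 0.482 and 0.182). Their regions went both ways, 2 higher and 2 lower in Abcc3 and 10 higher and 5 lower in Abcc4, and both were called higher as deposited (adjusted p = 0.036 and 0.00193).

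Xenobiotic and heme metabolism, the target of DDC, had 16 of 24 tested members lower, none higher and a median of -0.77. The shares of all genes were 18.1% lower and 22.0% higher. Cyp2c29 has no region. Cyp2e1 (-3.22 ± 0.39) and Cyp1a2 (-2.95 ± 0.42), cytochromes of the zone around the central vein, and Alas1, the first enzyme of heme synthesis (-2.35 ± 0.14, adjusted p = 2.93e-06), were among the falls. Alas1 had 62.4, 84.8 and 63.9 nuclear RPM in biliary cells and 359, 374 and 348 in hepatocytes, groups far apart with little spread. Fech, the last enzyme of the pathway, had 86.0, 86.4 and 77.3 against 101, 88.1 and 84.8 (-0.13 ± 0.13, adjusted p = 0.476), and Hmox1, which degrades heme, changed by 0.22 ± 0.12 (adjusted p = 0.190). Without biliary library 1 only 9 members of the list fell, and 8 did as deposited.

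**Figure D2:**
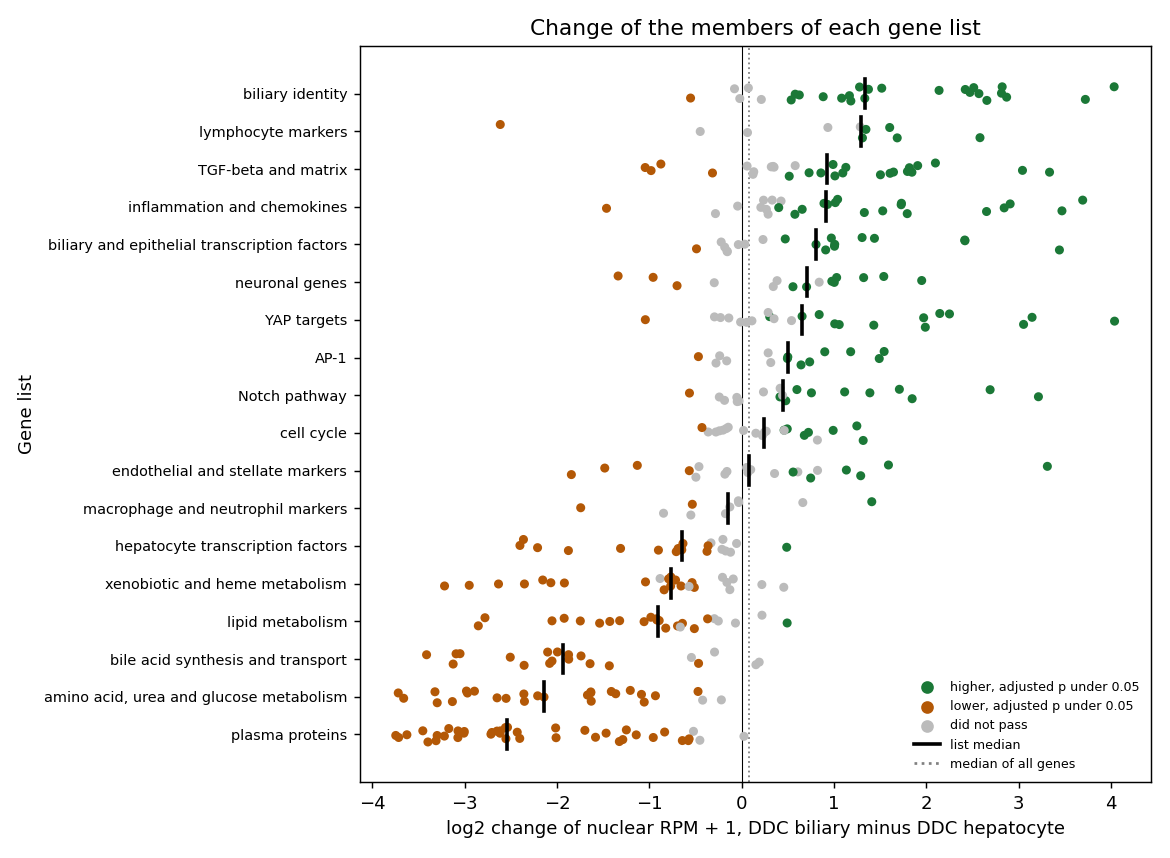
Change of each tested member of the 18 gene lists, as log2 of nuclear RPM + 1, biliary minus hepatocyte, with the lists ordered by their median (black bar). Green points were called higher, orange points lower and grey points did not pass, and the dotted line is the median of all genes (0.07). Plasma proteins (-2.55) and amino acid, urea and glucose metabolism (-2.14) lie farthest to the left, biliary identity (1.33) and lymphocyte markers (1.30) farthest to the right.

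Notch pathway genes rose in 10 of 19 and fell in 1, median 0.44, where 22.0% of all genes rose and 18.1% fell. In the neuronal list, which has no known role in liver, 8 of 15 rose, with a higher median of 0.70. Among ligands Jag2 rose by 2.69 ± 0.25 (adjusted p = 1.86e-05). The glycosyltransferases that tune Notch receptors, Lfng and Mfng, rose by 3.21 ± 0.18 and 1.85 ± 0.39 (adjusted p = 2.92e-06 and 0.00318), and the coactivator Maml2 by 1.71 ± 0.17. Lfng stood at 104, 93.8 and 107 nuclear RPM in biliary cells and 11.1, 9.10 and 10.1 in hepatocytes, a narrow range within each group. Notch1, a receptor, was the faller (-0.57 ± 0.16, adjusted p = 0.014). The Notch1 call was lost as deposited (-0.11) and without biliary library 1 or hepatocyte library 2 (-0.44 and -0.50).

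Targets of YAP, the effector of Hippo signalling, rose in 13 of 23 and fell in 1, median 0.65 (22.0% and 18.1% of all genes; 8 of 15 neuronal genes rose, median 0.70). Ankrd1 had 198, 237 and 245 nuclear RPM against 42.7, 14.4 and 29.4 (3.05 ± 0.30, adjusted p = 2.51e-05), and Ccn2, a secreted matrix protein, had 116, 139 and 112 against 17.9, 23.0 and 36.9 (2.25 ± 0.23, adjusted p = 3.35e-05). Axl, a receptor tyrosine kinase, rose by 3.14 ± 0.54. Ccn1, another classic target, did not pass and overlapped between groups: 341, 367 and 343 against 375, 326 and 469 (-0.14 ± 0.14, adjusted p = 0.446). Cdh2, which encodes N-cadherin, a cadherin that hepatocytes carry, fell (-1.04 ± 0.12, adjusted p = 5.38e-05).

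AP-1 factors rose in 8 of 14 tested and fell in 1, median 0.50, and Junb, Jund and Atf4 have no region. Beside them stand the same 22.0% and 18.1% of all genes, and 8 of 15 neuronal genes rose, with a higher median of 0.70. Jdp2 (1.54 ± 0.14), Fosl1 (1.49 ± 0.35), Batf (1.18 ± 0.23) and Creb5 (0.90 ± 0.19) rose. Jun changed by -0.47 ± 0.13 (adjusted p = 0.016), a call lost as deposited (-0.01) and without biliary library 1 or 3 (-0.44 and -0.43).

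Inflammation and chemokine genes rose in 17 of 26 tested and fell in 1, median 0.91, with no region for Cxcl10 and Tnfrsf12a. Over all genes 22.0% rose and 18.1% fell, and 8 of 15 neuronal genes rose, median 0.70. Csf2, a growth factor of myeloid cells, had 109, 78.8 and 114 nuclear RPM in biliary cells and 23.5, 13.4 and 6.71 in hepatocytes (2.84 ± 0.35, adjusted p = 9.65e-05). Cxcl5, which attracts neutrophils, had 50.6, 52.6 and 62.8 against 8.54, 5.27 and 10.9 (2.65 ± 0.27, adjusted p = 2.93e-05). Il23a, a subunit of interleukin-23, had 46.3, 36.3 and 38.7 against 4.27, 6.22 and 3.36 (2.91 ± 0.28, adjusted p = 2.08e-05). These 3 genes separate the groups by more than the spread within either, though Csf2 was not called with regions at gene ends only (1.28, adjusted p = 0.0574).

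Il1f6, an interleukin-36 ligand, rose by 3.47 ± 0.47 (adjusted p = 0.000194). Tnf had 106, 98.6 and 108 against 25.2, 19.6 and 0 in 1 region that also touches Ltb (3.69 ± 0.93, adjusted p = 0.00856), and DESeq2 did not call it (2.76, adjusted p = 0.0742). The 0 of hepatocyte library 3 weighs heavily on the Tnf fold. Il18, an inflammasome cytokine, fell (-1.46 ± 0.21, adjusted p = 0.000239), and its regions also touch Bco2.

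TGF-beta and matrix genes rose in 17 of 28 and fell in 4, median 0.92, beside 22.0% higher and 18.1% lower over all genes. Of 15 neuronal genes 8 rose and 3 fell, median 0.70. Itgb6, the integrin chain that activates latent TGF-beta and marks reactive ducts, had 260.0, 181 and 264 nuclear RPM against 30.7, 30.2 and 21.8 (3.04 ± 0.19, adjusted p = 3.54e-06). Of its 17 tested regions 16 were higher, beside 26.1% of all regions. Thbs1, another activator of TGF-beta, rose by 3.33 ± 0.30, and a region tied to it also touches Fsip1. The laminin chain Lamb1 and the latent TGF-beta binding protein Ltbp2 rose by 2.10 ± 0.20 and 1.91 ± 0.18. Nid1, a basement membrane linker, and Tgfbr2, the TGF-beta type 2 receptor, changed by -1.05 ± 0.18 and -0.98 ± 0.13. Col18a1 was called by a small margin (-0.32 ± 0.10, adjusted p = 0.030), lost its call without any library but hepatocyte library 3 (-0.35 to -0.29), and turned to 0.14 as deposited. With regions at gene ends only, Col18a1 was called higher instead (1.26, adjusted p = 0.00567).

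Cell cycle genes rose in 7 of 21 and fell in 1, median 0.25, beside 22.0% higher and 18.1% lower over all genes. The G1 cyclins Ccnd2 (1.32 ± 0.17, adjusted p = 0.000136) and Ccnd1 (1.25 ± 0.24, adjusted p = 0.00166) rose. The Ccnd1 call was lost with regions at gene ends only (0.49, adjusted p = 0.154) or touching the gene only (0.33, adjusted p = 0.331). Without biliary library 1 or 3 the count of risers was 4. Cdkn2c, a kinase inhibitor, was the faller at -0.43 ± 0.13, a call lost without biliary library 1 or 3 or hepatocyte library 1 or 2 and turned to 0.02 as deposited.

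Markers of other cell types were low or went both ways, with the lymphocyte list leaning to the higher side. Over all genes 22.0% rose and 18.1% fell. Of 16 macrophage and neutrophil markers 6 (Adgre1, Clec4f, Cd5l, Vsig4, Ly6g and Lyz2) have no region, 1 of the 10 tested rose and 2 fell, and the list summed to 161 to 193 nuclear RPM in biliary and 199 to 257 in hepatocyte libraries. The pan-leukocyte gene Ptprc had 5.19, 6.02 and 5.67 against 13.2, 20.1 and 35.3 (-1.74 ± 0.35, adjusted p = 0.00219). Of 15 lymphocyte markers 5 have no region, 5 of 10 tested rose and 1 fell, median 1.30, with sums of 172 to 210 against 127 to 144. Cd8a had 5.39, 5.82 and 3.91 nuclear RPM in biliary cells and no read in any hepatocyte library, at least 9.45-fold higher against a floor of 3 reads over the hepatocyte group. Cd4 went the other way, 2.02, 5.63 and 1.76 against 22.2, 24.9 and 20.1. Cd8a and Cd4 thus separate the groups in opposite directions at low levels, and Cd4 was the only lymphocyte marker called lower.

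Among 20 endothelial and stellate markers 6 rose and 4 fell, near the 22.0 and 18.1% of all genes, and the sums overlapped (456 to 500 against 413 to 482). Pdgfrb, of stellate cells and fibroblasts, rose by 3.31 ± 0.72 and the sinusoidal receptors Stab2 and Lyve1 changed by -1.85 ± 0.16 and -1.48 ± 0.28. Pdgfrb was not called with regions at gene ends only (1.11, adjusted p = 0.121) or touching it only (1.76, adjusted p = 0.052), nor Lyve1 with touching regions only (-0.69, adjusted p = 0.115). The part of such cells in the results was not tested. Neuronal genes, a list with no known role in liver, rose in 8 of 15 tested and fell in 3, with a median of 0.70; 4 rose without biliary library 1 or 3 and 5 without biliary library 2. That count shows how far a list without a liver function lies from 0 in this comparison.

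At the level of single regions 37106 of 78935 were called (47.0%), 20614 higher (26.1%) and 16492 lower (20.9%). All 3 biliary libraries lay above all 3 hepatocyte libraries in 31.1% of regions and below them in 24.6%. Without biliary library 1, 24681 regions were called in the region accessibility test. Called shares depended on location. Among 12251 regions that hold a promoter window 20.9% were higher and 11.8% lower. Inside genes the shares were 26.0 and 24.6%, and between genes 29.8 and 20.6%. Changes of at least 4-fold were also rarer at promoters, 5.04% higher and 2.75% lower, than between genes, 12.8% and 8.51%. Width and depth move with location, since promoter regions had a median width of 1787 bp and 27.9 nuclear RPM, and regions between genes 692 bp and 3.57, and their part was not tested.

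**Figure D3:**
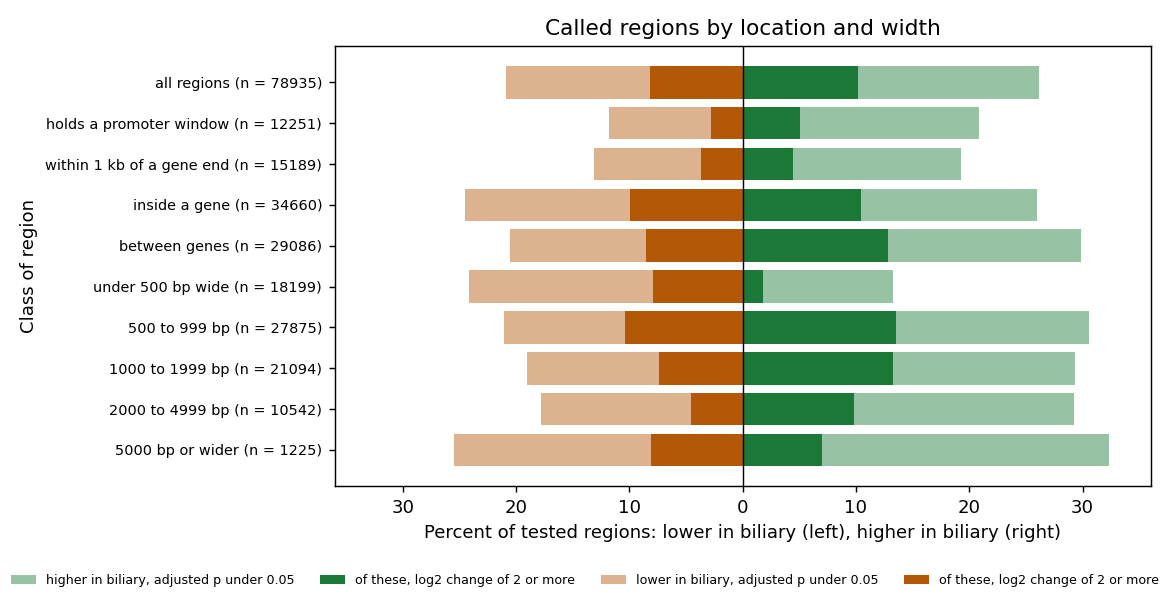
Percent of tested regions lower (left) and higher (right) in biliary cells, by location and by width, with the number tested in brackets. Pale bars are all regions called at adjusted p under 0.05 and dark bars those with a log2 change of 2 or more. Regions over promoter windows have the shortest bars of the location classes on the lower side (11.8%), and regions under 500 bp wide lean to the lower side (24.2% against 13.3% higher).

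The regions with the largest rises lay mostly outside promoters. A region with no gene within 50 kb, chr15:27340452-27342333, had 58.8, 48.7 and 46.3 nuclear RPM in biliary cells and 0.854, 0 and 0 in hepatocytes (5.40 ± 0.35, adjusted p = 9.19e-06). One inside Me3, a mitochondrial malic enzyme, chr7:89833156-89834268, had 42.7, 29.3 and 44.7 and no hepatocyte read, at least 72.9-fold higher against 3 reads over the group. Others lay near Tgif1, a repressor in TGF-beta signalling (5.33 ± 0.54), near Mmp20 (5.23 ± 0.38) and inside Frmd4a, a regulator of epithelial polarity (5.20 ± 0.37). These regions were almost closed in hepatocytes.

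On the other side the leading region covered a promoter of Bbox1, the last enzyme of carnitine synthesis, chr2:110304625-110306526, with 1.06, 0.777 and 2.54 nuclear RPM in biliary cells and 32.4, 53.2 and 52.0 in hepatocytes (-4.29 ± 0.35, adjusted p = 1.78e-05). A region inside Mtss1, an actin regulator, chr15:58998924-59000218, had 3.46, 8.93 and 6.06 against 96.0, 111 and 119 (-4.01 ± 0.28, adjusted p = 1.08e-05). The remaining 3 lay near Nudt7, a peroxisomal enzyme (-4.07 ± 0.32), and at 2 places with no gene within 50 kb (-3.99 ± 0.30 and -3.97 ± 0.34).

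Many genes held regions that moved in opposite directions. Of the 16154 genes 3183 (19.7%) had at least 1 region higher and 1 lower. They had a median of 9 regions, against 3 over all genes, and 1895 of them were not called as a sum. Among list members it was 107 of 385. Prox1 is such a gene: 6 of its 25 tested regions were higher and 5 lower, while the region at its start site had 88.9, 107 and 89.2 nuclear RPM against 105, 101 and 62.1 (0.12 ± 0.19, adjusted p = 0.624). One region downstream of the start site, chr1:190106019-190107468, had 15.4, 19.995 and 10.2 against 92.6, 62.7 and 34.4 (-1.93 ± 0.34), and a region upstream of it, chr1:190184837-190186486, had 17.6, 18.2 and 15.5 against 2.13, 0.958 and 1.68 (2.83 ± 0.34). The 2 groups thus differ at Prox1 in which distal regions are open, and the start site is open in both.

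Hes1, Sox9 and Foxa2 also held regions in both directions, as did 19.7% of all genes. Unlike at Prox1, the regions over the Hes1 and Sox9 genes were themselves called higher. At Hes1, a Notch target, 9 of 13 regions were higher and 2 lower, and the gene rose by 0.76 ± 0.12 (adjusted p = 0.000459). At Sox9 the region over the gene rose by 1.11 ± 0.26 and a region beyond its end, chr11:112807947-112808417, fell from 11.1, 8.62 and 7.55 nuclear RPM in hepatocytes to 0.673, 2.14 and 0.977 in biliary cells (-2.19 ± 0.40, adjusted p = 0.000974). The main start-site regions of Foxa1 and Foxa2 had mean levels of 182 and 120 nuclear RPM in biliary cells and 204 and 112 in hepatocytes, and neither was called.

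Hnf4a has 2 start sites, 40.3 kb apart, and they behaved differently. The region over the upstream start, chr2:163506167-163508254, had 22.4, 28.5 and 25.4 nuclear RPM in biliary cells and 21.8, 17.7 and 22.7 in hepatocytes (0.29 ± 0.22, adjusted p = 0.310). The region over the downstream start, chr2:163546545-163551955, had 6.64, 11.3 and 7.43 against 62.8, 55.5 and 43.6 (-2.56 ± 0.26, adjusted p = 3.54e-05). The upstream region overlaps between groups and the downstream region does not. The log2 ratio of downstream over upstream was -1.51 ± 0.21 in biliary cells and 1.33 ± 0.36 in hepatocytes (mean ± SD, n = 3 each), with no overlap. A two-sided exact permutation test gave p = 0.1, the smallest that 3 against 3 libraries allow. The upstream region was singled out after its values were seen. Both promoters are printed to show what differs in letters between a start that differs and one that was not called.
Hnf4a upstream start (chr2:163506607-163506856, plus strand): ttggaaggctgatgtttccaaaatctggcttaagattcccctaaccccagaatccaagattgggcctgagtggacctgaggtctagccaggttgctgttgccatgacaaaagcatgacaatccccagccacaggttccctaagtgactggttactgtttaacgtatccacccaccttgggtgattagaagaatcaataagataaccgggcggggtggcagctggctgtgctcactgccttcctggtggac
Hnf4a downstream start (chr2:163546905-163547154, plus strand): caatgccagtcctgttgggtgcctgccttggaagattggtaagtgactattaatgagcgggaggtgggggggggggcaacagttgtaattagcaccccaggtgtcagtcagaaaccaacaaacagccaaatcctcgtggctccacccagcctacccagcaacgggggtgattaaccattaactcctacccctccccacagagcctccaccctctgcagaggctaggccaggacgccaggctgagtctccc
Neither window holds any of the searched letters.

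**Figure D4:**
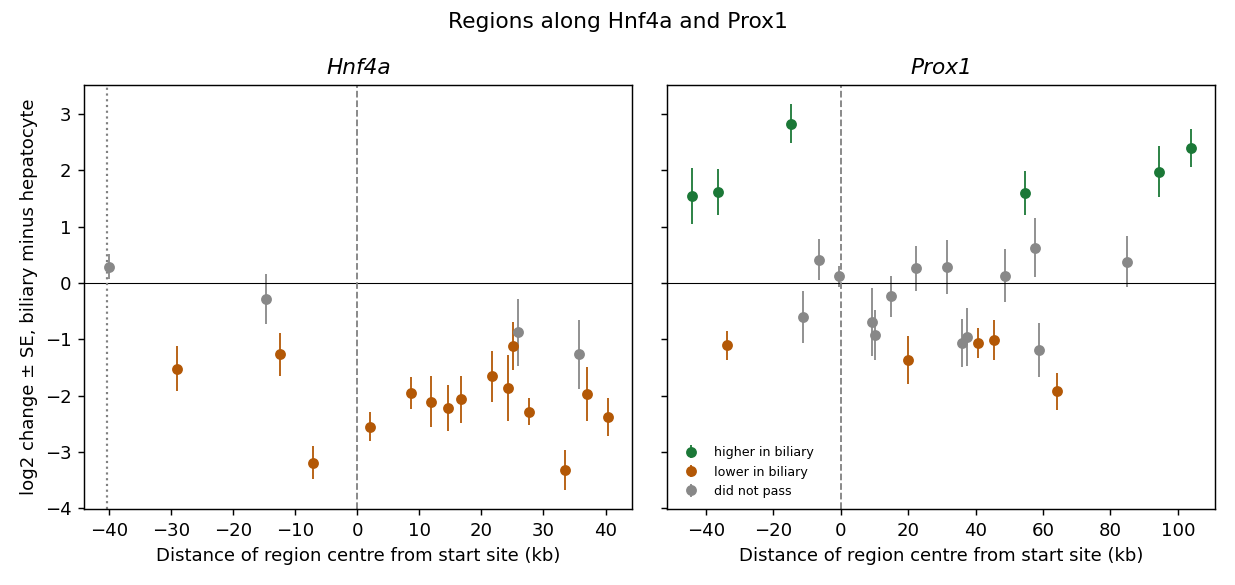
Change of each tested region along Hnf4a and Prox1 (log2, biliary minus hepatocyte, bars are SE) against the distance of its centre from the start site (dashed line, for Hnf4a the downstream start; dotted line, the upstream start). Hnf4a has 15 lower regions and none higher, with the upstream start-site region at 0.29. Prox1 has 6 higher and 5 lower regions on both sides of an uncalled start-site region at 0.12.

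Promoters and whole genes did not always share a call. Of the higher genes with a tested promoter region, 1481 had a promoter called higher, 696 had none called and 23 had one called lower. Of the lower genes 853 had a promoter called lower, 872 had none called and 66 had one called higher. The part of the lower genes whose promoter was called lower is therefore smaller than the corresponding part of the higher genes, although the power of the 2 tests was not compared.

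Letters of known motifs were counted in the promoter windows of the RefSeq table, 250 bases before to 50 after each start, on both strands. Windows of 1 gene can overlap. The HNF4 letters CAAAGTCCA were in 0.475% of all 32851 windows, in 0.237% of the 3378 windows in regions higher in biliary cells and in 1.65% of the 1822 in lower regions. Among windows in tested regions the share was 0.501%, and among the 412 windows in regions at least 4-fold lower it was 3.16% (13 windows). C/EBP (TTGCNNAA) was in 10.8, 7.84 and 14.4% of all, higher and lower windows (8.98% in tested regions), and FOXA (TGTTTAC) in 3.65, 2.61 and 4.72% (3.04% in tested regions). HNF4 letters were in 0.135% of windows at least 4-fold higher. At 4-fold, C/EBP was in 11.1% of higher and 21.1% of lower windows, and FOXA in 4.05 and 5.10%. The letters of HNF4, C/EBP and FOXA, factors of liver, were thus more frequent in windows of lower than of higher regions. For C/EBP and FOXA, however, the 4-fold higher windows also lay above the share in tested regions.

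The AP-1 letters TGANTCA were in 7.81% of all windows, 5.95% of windows in tested regions, 8.29% of higher and 7.35% of lower windows, and in 12.8% of windows at least 4-fold higher and 8.50% of those at least 4-fold lower. TEAD (GGAATG), the partner of YAP, was in 14.7, 15.04 and 13.7% of all, higher and lower windows (12.7% in tested regions), and in 19.7 and 14.6% at 4-fold. For both AP-1 and TEAD, higher and lower windows alike lay above the share in tested regions. GRHL letters (AACCNGTT) were in 2.09, 1.92 and 2.52% (1.88% in tested regions), and in 2.43% of higher and 3.88% of lower windows at 4-fold. ETS letters (CCGGAAG), typical of promoters rich in CG, were in 8.86% of all windows, 14.9% in tested regions, and 8.59 and 7.08% of higher and lower ones, with 6.08 and 0.971% at 4-fold. Base composition moved with these counts: windows held 18.6 CG pairs on average in higher and 13.7 in lower regions, 12.9 and 6.08 at 4-fold, and its part was not tested. A match is a run of letters and not a bound site.

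Untreated liver gives the same contrast of cell types, and the difference of the contrasts was tested over 12 libraries. Krt19 rose by 4.03 in DDC and 2.36 in untreated liver, a difference of 1.67 ± 0.75 (adjusted p = 0.285). Epcam differed by 1.12 ± 0.29, Alb by -0.56 ± 0.52 and Hnf4a by 0.14 ± 0.50 (adjusted p = 0.083, 0.611 and 0.916). None of the 4 markers passed, which does not show that the contrasts are equal. Of 16155 genes 160 passed (0.99%), 68 with a higher contrast in DDC (0.421%) and 92 with a lower one (0.569%).

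Il23a was among the 5 largest differences on the higher side: 46.3, 36.3 and 38.7 nuclear RPM in DDC biliary cells stood against 3.78, 4.10 and 3.19 in untreated biliary cells, and 4.27, 6.22 and 3.36 in DDC against 9.92, 6.61 and 17.0 in untreated hepatocytes (difference 4.20 ± 0.63, adjusted p = 0.023). Among the groups compared here only the DDC biliary cells were high, and the reprogrammed cells were not part of this test. Itgb6 and Amotl1 had larger contrasts in DDC by 2.58 ± 0.45 and 1.84 ± 0.36 (adjusted p = 0.028 and 0.034). Scd1 had a contrast of -1.92 in DDC and -0.12 in untreated liver (difference -1.80 ± 0.28, adjusted p = 0.026). The untreated hepatocyte libraries hold 201705 to 605309 nuclear reads, so that Il23a rests there on 2, 4 and 4 reads. The count of 160 fell to 0 with all 12 libraries thinned to 201705 reads, where 1614 genes had an unadjusted p under 0.05, and to 0 without DDC biliary library 1 or 2, DDC hepatocyte library 1 or untreated biliary library 2 or 3. Without DDC biliary library 3 it was 1, and without untreated hepatocyte library 2 it was 1474.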

How the data were processed

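ATAC-seq reads were counted over 1 shared set of 93217 regions with a median width of 706 bp in all 15 libraries. Per the submitters' processing notes, the tools were Bowtie2, SAMtools, MACS2 and bedtools and the build was mm10, with no versions. The authors deposited 1 value per region and library, scaled as RPM with mitochondrial reads in the total. The file calls them TPM, but every column sums to 1000000 and the values are whole-read multiples without a length term (100% whole within 0.02 in the 6 libraries compared). A label calls the library source transcriptomic, while the protocol describes DNA and ATAC.

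From the deposited RPM, 2 mitochondrial regions were dropped and each library was rescaled to 1000000. Regions were tied to the protein-coding gene with the largest overlap, or the nearest within 50 kb, in the RefSeq GRCm38.p6 gene table (80462 regions, 16529 genes), and summed per gene. Values were tested with limma 3.58.1 (R 4.3.3) with an intensity trend on log2(RPM + 1), on the 6 libraries, for features with a mean of at least 1 nuclear RPM, with Benjamini-Hochberg adjustment over all features tested. The contrast with untreated liver used 12 libraries and an interaction term. Every adjusted p in the text is limma's unless edgeR or DESeq2 is named. edgeR 4.0.16 and DESeq2 1.42.0 were run on the recovered reads as alternatives. The design assumed TPM; the test that RPM needs is the same. Scripts were tested on simulated data.

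Named genes are the 4 markers, the 10 largest rises and 10 largest falls among called genes whose groups do not overlap and whose higher group has a mean of at least 10 nuclear RPM (predicted genes and chromosome 18 left out), and in each list the called members with the largest changes (up to 4 in each direction) and those against its main direction. Members named although they did not pass and single regions of Prox1, Sox9, Hes1, Foxa1 and Foxa2 were chosen after values were seen. The members and gene lists were chosen with earlier results of these data known. Floors and bounds (3 reads) cover counting error only, and reads without molecular identifiers are not independent molecules. Promoter sequences are from RefSeq, GRCm38.p6. Regions far from promoters were not searched for motifs. Some genes that the rule names are not reported here.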

Additional observations from a re-analysis of the deposited data

Results flagged for a closer look

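The genes here have a biliary-hepatocyte difference that differed between DDC and untreated liver by limma's interaction test (adjusted p under 0.05), given as log2 in DDC minus log2 in untreated liver. Among genes that the naming rule picked, the contrast was higher in DDC for Il23a (4.20), Cyba (3.20), Itgb6 (2.58), Ltbp2 (1.94), Amotl1 (1.84) and Lamb1 (1.69). It was lower for Scd1 (-1.80). Hes1, named outside that rule, also had a lower contrast in DDC (-0.83, adjusted p = 0.041).

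The 5 largest differences in each direction leave out predicted genes and chromosome 18. They were Cpa4 (5.15), a carboxypeptidase, Tmem200a (4.76), Fam124b (4.52), Grik1 (4.24), a glutamate receptor subunit, and Il23a on the higher side. On the lower side they were Tmem100 (-4.76), Olfr94 (-4.55), Izumo2 (-4.40), Pde6c (-4.39), a phosphodiesterase of cone cells, and Tpsg1 (-4.38), a mast cell protease. Untreated hepatocyte libraries 1, 2 and 3 gave Cpa4 2, 4 and 0 reads, Grik1 5, 23 and 9 reads, and Tmem100, Izumo2 and Tpsg1 no read in any library. The part of these low counts in the differences was not tested.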

How the results depend on the processing

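For genes, 6469 calls became 4034 with all 15 libraries in the fit and 3620 when only regions at gene ends (within 1 kb) counted. The deposited scale gave 8623, 83.3% of them higher, leaving out 1 library 4525 to 7888, and the other settings 5403 to 6848. For regions, 37106 calls became 24657 with all 15 libraries and 19886 at a mean of 5 or more, and 24681 (without biliary library 1) to 41539 (without hepatocyte library 3) with 1 library left out. On the deposited scale 69.7% of called regions were higher.

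The interaction count of 160 became 9100 as deposited (126 higher, 8974 lower, with the median of all genes at -1.42), 465 with edgeR (274 higher, 191 lower), 0 after thinning (1614 at an unadjusted p under 0.05), 65 with the replicate block, and 0 to 1474 with 1 library left out. Leaving out untreated hepatocyte library 1, 2 or 3 gave 693, 1474 and 714. The causes were not tested.

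Same-number correlations of deviations were weak, at 0.035, 0.143 and 0.106, and those of different numbers ran from -0.121 to 0.041. Biliary library 1 correlated best with hepatocyte library 3 (0.041). These values do not settle whether replicate numbers pair the libraries. The replicate block gave 6693 genes and 39813 regions.

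Of 114 named genes 80 stayed called in every setting that tested them, but not every setting tested them all. With regions at gene ends only, 75 were the same, 15 weaker and 3 reversed. Lhx2 turned to -0.13 with touching regions only, Col18a1 to 0.14 as deposited and 1.26 at gene ends, Cdkn2c to 0.022 as deposited, Spi1 to 0.13 at gene ends, and Slc17a7 to -0.14 at gene ends and with touching regions. Depth limits folds of genes at 0 to 3 reads in hepatocytes.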
